A study of Homo sapiens with 16 samples.

Results

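The genes described here are 9 surface antigens of the B-cell lineage, chosen by gene symbol from the 62714 genes of the deposited counts. The rule itself uses no measured value, but the set was proposed with earlier results of these data known. They are MS4A1 (CD20), CD79A, CD79B, CD22, CD37, CD72, MME (CD10), CD24 and CR2 (CD21), and several are targets of antibodies or engineered T cells in lymphoma. Each symbol matched 1 gene. They were measured by RNA-seq of ribosomal RNA depleted RNA in 4 established human B-cell lymphoma lines, in which a lentiviral vector carrying Cas9 and a pool of 4 guides had targeted either CREBBP, the gene of a histone acetyltransferase and coactivator, or the AAVS integration site as the control. Targeted cells were kept as pools rather than clones, so that edited and unedited cells can be present together, and the genotype of a library is taken from its label. Each pool gave 1 library without treatment (baseline) and 1 after 4 h with 10 ng/ml of IL4, the cytokine that activates the transcription factor STAT6. This gave 4 libraries in each of 4 groups, named AAVS baseline, CREBBP baseline, AAVS IL4 and CREBBP IL4, and the cell line is the replicate. All groups, controls included, carry the Cas9 vector. SU-DHL4 is line 1 and DOHH2 line 4. OCI-LY7 and SU-DHL10 are given in opposite order by different fields of the labels, so these are called line 2 and line 3. Each line has 1 library in a group, so that replicate error in a comparison of groups means how the difference varies among the lines.

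The B-cell receptor is a membrane immunoglobulin held by CD79A and CD79B, whose cytoplasmic tails start the signal. CR2 binds complement fragments on antigen and, as part of a coreceptor with CD81, lowers the threshold of this signal, while CD22 and CD72 carry inhibitory motifs that dampen it. MS4A1 and CD37 span the membrane several times and are present on most mature B cells. MME is a peptidase that marks germinal centre and precursor B cells, CD24 is a small glycosylated protein with a lipid anchor that is high on precursor and resting B cells, and CR2 is abundant on mature B cells outside the germinal centre and on follicular dendritic cells.

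CR2 and CD24 carry the largest differences described below, and the bases before their start sites are shown for that reason, together with those of CD79A, the member with the highest level per length. The sequences are those of RefSeq on GRCh38.p14, up to 250 bases before the start site, without the bases that lie in an annotated exon. Capitals mark the E-box letters CANNTG, which E proteins such as TCF3 recognise.
CR2, chr1:207454078-207454229, plus strand: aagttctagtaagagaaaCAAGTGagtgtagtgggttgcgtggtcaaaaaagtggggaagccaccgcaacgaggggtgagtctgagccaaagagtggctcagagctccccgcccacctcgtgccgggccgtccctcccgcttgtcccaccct
CD24, chr6:106975628-106975877, minus strand: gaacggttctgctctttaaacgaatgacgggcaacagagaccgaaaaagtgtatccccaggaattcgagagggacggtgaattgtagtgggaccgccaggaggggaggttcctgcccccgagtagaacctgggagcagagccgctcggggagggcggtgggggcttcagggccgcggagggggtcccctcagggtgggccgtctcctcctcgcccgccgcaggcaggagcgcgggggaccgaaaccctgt
CD79A, chr19:41877029-41877278, plus strand: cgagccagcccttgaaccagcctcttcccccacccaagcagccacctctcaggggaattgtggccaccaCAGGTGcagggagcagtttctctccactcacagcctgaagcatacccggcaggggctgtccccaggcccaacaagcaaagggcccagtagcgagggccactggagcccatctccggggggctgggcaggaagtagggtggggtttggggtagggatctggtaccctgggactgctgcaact
The window of CR2 lies inside the annotated gene, which spans chr1:207453024-207489895 on the plus strand and begins upstream of this start site. CD24 spans chr6:106969831-106975627 on the minus strand and CD79A chr19:41877279-41881372 on the plus strand, and their windows end at the first base of the gene. RefSeq entries were found for 6 of the 9 members, 11 entries in all. Both strands of the full 250 bases were searched for the letters TTCNNNNGAA, the spacing that STAT6 prefers, and these occurred in 1 of the 11 entries, an MME start, against 5.38% of the 35114 promoters searched. TTCNNNGAA was in 0 of the 11 entries and in 6.57% of all promoters, and the octamer ATTTGCAT was in 0 of the 11 and in 1.63% of all. GAGGAA, the core recognised by PU.1, was in 1 of the 11 entries, that of CD72, and in 23.6% of all promoters. E-box letters were in 7 of the 11 and in 61.8% of all promoters. These matches describe the letters in these windows.

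Total counts ranged from 19649735 to 61981976 per library, and the AAVS IL4 group had the lowest median depth. CREBBP itself was counted in all 16 libraries, with log2 fold changes of -0.11 (SE 0.21, adjusted p = 0.851) at baseline and -0.51 (SE 0.23, adjusted p = 0.218) with IL4 for CREBBP against AAVS pools, so its transcript level did not pass the test in either comparison and is no check of the labels. The study reported that immunoblots of the targeted pools showed loss of CREBBP protein, which RNA counts do not measure. The AAVS IL4 libraries stood apart from the other 12. IGHM, the heavy chain of IgM, was at 138 to 1711 CPM in them and at most at 0.0696 CPM elsewhere, where CPM, the unit used throughout, is a gene's share of its library's summed counts on the usual CPM scale. In these 4 libraries 8 of 12 genes marking naive and memory B cells, 10 of 13 marking T and NK cells, 3 of 8 plasma cell genes, 1 of 10 monocyte genes (LYZ), 1 of 11 stromal, endothelial and epithelial genes (COL3A1) and 0 of 10 germinal centre genes were higher than in any of the other 12. The naive and memory B cell list was chosen with earlier results of these data known. The share of all genes that separate in this way was not computed, so these counts have no background beside them. The germinal centre list, which includes PAX5 and BCL6, summed to 924 to 2539 CPM, with 9 of its 10 genes at 1 CPM or more in each library, so the defining genes of the labelled cell type were present. Outside the AAVS IL4 group, pairs of lines 1, 3 and 4 differed by 1 to 17 genes with at least 10 CPM in 1 and less than 0.5 CPM in the other, against 149 to 235 genes for pairs with line 2, and whether lines 1, 3 and 4 are distinct was not decided from the counts. The small RNAs RN7SK, RN7SL1 and RN7SL2 took 18.1% of the counts in the CREBBP IL4 library of line 2 and 4.41% to 13.3% in the others.

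Of the 9 antigens, 8 were transcribed in all 16 libraries, with at least 134 counts in each, and CR2 was close to 0 outside the AAVS IL4 group. To compare genes, counts were divided by the exon length of the gene and scaled to the same sum in each library, and this length-scaled level is used only to order them. Over the 12 libraries without AAVS IL4 its median was 704 for CD79A, 596 for MS4A1, 314 for CD22, 256 for CD79B, 115 for CD37, 32.5 for MME, 29.9 for CD72, 4.81 for CD24 and 0.0685 for CR2. Neighbours at the top of this order were not separated. CD79A was above MS4A1 in 8 of these 12 libraries, MS4A1 above CD22 in 9 and CD22 above CD79B in 6. CD79B was above CD37, CD37 above MME and CD24 above CR2 in 12 of 12, whereas MME was above CD72 in 7 and CD72 above CD24 in 9.

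**Figure D1:**
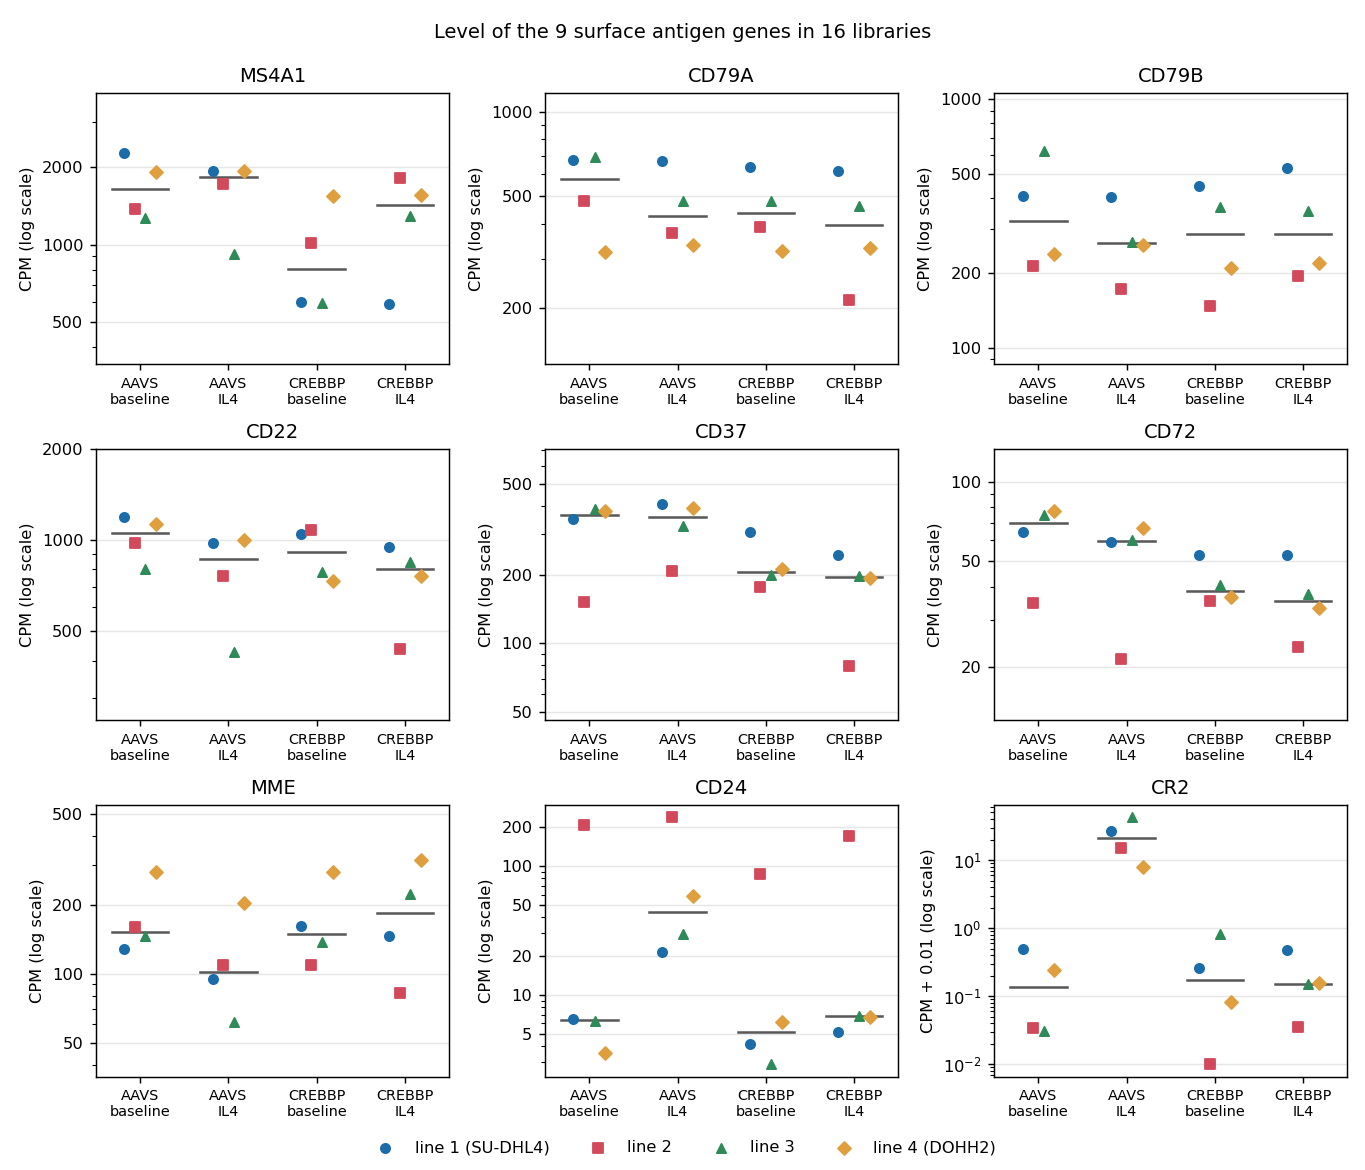
Level of each of the 9 antigen genes in the 16 libraries, in CPM on a log axis (CR2 with 0.01 CPM added so that 0 can be drawn), by group and coloured by line, with a bar at the median of each group of 4. In the AAVS IL4 libraries CR2 stands at 7.90 to 42.2 CPM, and it is under 1 CPM in the other 12, and CD24 is highest in line 2 in each group.

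Across the comparisons of the study, CR2 was the one member that passed an adjusted p of 0.05 in the quasi-likelihood test of edgeR, in which the line was a block. For IL4 in the AAVS pools and between the pools with IL4, CR2 passed the filter on low counts through the AAVS IL4 group. With IL4 against baseline in the AAVS pools, 1 of 9 members was called, which was higher, where 2.40% of the 20310 genes tested were called and 2.39% were called and higher. This background of 488 genes fell to 64 without line 1 and rose to 1035 without line 2. In the CREBBP pools IL4 changed 0 of the 8 members tested (CR2 did not pass the filter on low counts), and 0 of 18282 genes were called, although 502 had an unadjusted p under 0.05, 1 of them a member (CD24). DESeq2 called 1 gene there and limma-voom 0. CREBBP against AAVS pools at baseline gave 0 of 9 members and 0 of 18936 genes, with 2422 genes at an unadjusted p under 0.05, of which 1 was a member (MS4A1), while DESeq2 called 511 genes and limma-voom 39, no member among them. With IL4, 1 of 9 members was lower in the CREBBP pools, against 4.39% of 19581 genes called and 3.42% called and lower. Of the 859 genes called there, 670 were lower and 189 higher, and with library totals as the only scaling 1275 were lower and 56 higher. The IL4 response itself differed between CREBBP and AAVS pools for 1 of 9 members, which was lower, against 0.638% of 21932 genes called and 0.620% called and lower. The median log2 fold change of the members tested was -0.27, -0.02, -0.23, -0.07 and 0.33 in these 5 comparisons in turn, beside 0.01, -0.04, -0.03, -0.05 and 0.05 over the genes tested. The comparisons share libraries, and the AAVS IL4 group enters 3 of the 5.

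**Figure D2:**
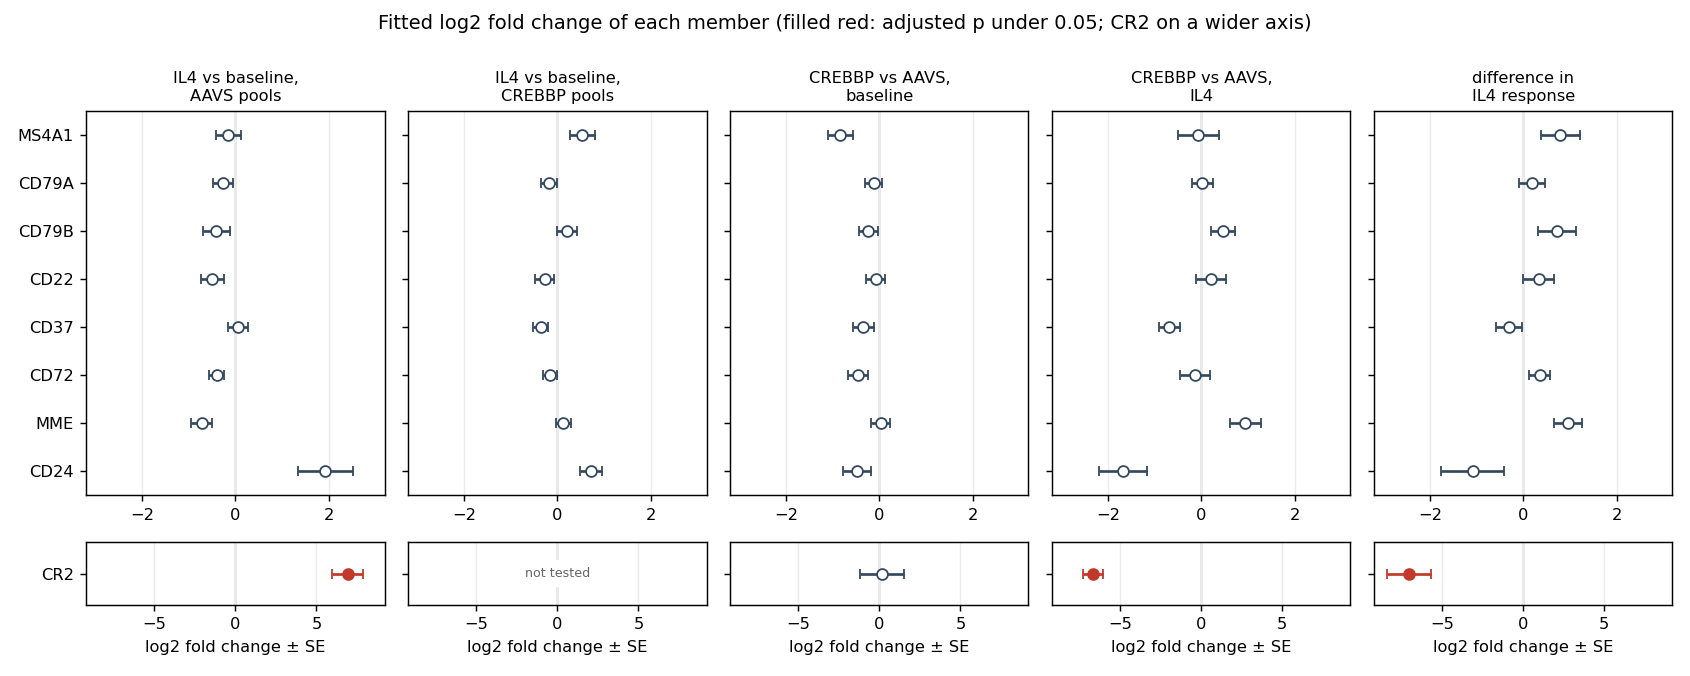
Fitted log2 fold change of each member with its standard error in the 5 comparisons, with CR2 on a wider axis and members past an adjusted p of 0.05 in filled red. CR2 is red in 3 panels, at 6.92, -6.68 and -7.06, and was not tested for IL4 in the CREBBP pools, while the other 8 members have open symbols in all 5 panels.

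MS4A1, the target of rituximab, had the largest fitted difference between the pools at baseline among the 9 members, and it did not pass the test. For lines 1 to 4 in turn it stood at 2275, 1376, 1268 and 1923 CPM in the AAVS pools and at 597, 1013, 592 and 1547 CPM in the CREBBP pools. It was lower in the CREBBP pool of each line, by 1.93, 0.44, 1.10 and 0.31 on the log2 scale with 0.5 CPM added, and it was the only member lower in 4 of 4 lines, yet the groups overlapped because the AAVS pools of lines 2 and 3 lay under the CREBBP pool of line 4. The log2 fold change was -0.84 (SE 0.28, adjusted p = 0.294), and it was -0.49 without line 1, the line with the largest difference. Without the filter on low counts the adjusted p was 0.0246, and 586 of 35938 genes were called there. With IL4 the AAVS pools stood at 1927, 1728, 924 and 1933 CPM and the CREBBP pools at 588, 1824, 1293 and 1566 CPM. Line 1 kept a difference of -1.71, whereas lines 2 and 3 were higher in the CREBBP pool, and the log2 fold change was -0.07 (SE 0.45, adjusted p = 0.935). Between CREBBP baseline and CREBBP IL4, MS4A1 was higher in line 2 by 0.85 and in line 3 by 1.13 and differed by -0.02 in line 1 and 0.02 in line 4, for a log2 fold change of 0.54 (SE 0.27, adjusted p = 0.924). The small RNA share was 13.3% in the CREBBP baseline library of line 3 and 18.1% in the CREBBP IL4 library of line 2, and its part in these values was not tested.

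CD37, a tetraspanin and target of antibodies in lymphoma, followed a different course. For lines 1 to 4 its level was 351, 151, 389.7 and 379 CPM in AAVS baseline, and in AAVS IL4 it was 409, 208, 328 and 391 CPM. In CREBBP baseline the values were 306, 177, 199 and 211 CPM, and in CREBBP IL4 245, 79.8, 198 and 193 CPM. With IL4 each CREBBP pool was below the AAVS pool of its line, by 0.74, 1.38, 0.73 and 1.01 on the log2 scale, although the AAVS library of line 2 stayed below the CREBBP library of line 1. The value of 79.8 CPM, and with it the difference of 1.38, comes from the CREBBP IL4 library of line 2 with its 18.1% share of small RNAs, whose part was not tested. These differences are scaled by library totals, on which the median of all genes with IL4 was -0.33, against -0.05 in the fit with TMM factors. The log2 fold change in the fit was -0.69 (SE 0.22, adjusted p = 0.114) with IL4 and -0.35 (SE 0.23, adjusted p = 0.556) at baseline, where line 2 was higher in the CREBBP pool. DESeq2 gave an adjusted p of 0.00747 for the difference with IL4, where it called 4154 of 19581 genes. For IL4 against baseline in the AAVS pools the value was 0.06 (SE 0.22, adjusted p = 0.907), and its sign depended on the line left out.

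The signalling chains CD79A and CD79B were not called in any of the 5 comparisons between conditions. CD79A was at 677, 481, 692 and 318 CPM in AAVS baseline, 670.2, 371, 483 and 337 CPM in AAVS IL4, 637, 389.5, 482 and 319.9 CPM in CREBBP baseline and 616, 213, 461 and 327 CPM in CREBBP IL4. CD79B was at 409.8, 214, 619 and 239 CPM, at 405, 173, 266 and 261 CPM, at 449.9, 148, 368 and 209 CPM and at 528, 195, 357 and 219 CPM in the same groups. Within lines 1 and 4 the 4 CD79A values lay between 616 and 677 CPM and between 318 and 337 CPM. The log2 fold changes ran from -0.27 to 0.18 for CD79A and from -0.41 to 0.72 for CD79B. With IL4, CD79A was lower in the CREBBP pool of each line by library totals (-0.12, -0.80, -0.07 and -0.04), the second of these in the library with the 18.1% share of small RNAs, but had a fitted value of 0.02 (SE 0.23, adjusted p = 0.962), so its sign depended on the scaling. The widest of the fitted values, 0.72 (SE 0.40, adjusted p = 0.469), was the difference in IL4 response of CD79B, where line 3 of the AAVS pools fell from 619 to 266 CPM with IL4. The 2 chains pair in the receptor, and their length-scaled levels stood in a ratio of 1.73 to 4.16 of CD79A to CD79B over the 16 libraries (group medians of 1.94 to 2.74).

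The inhibitory receptors CD22 and CD72 did not pass the test in any of the 5 comparisons. CD22, a lectin that binds sialic acid and a target of antibody conjugates, stood at 1189, 979, 805 and 1133 CPM in AAVS baseline and at 975, 761, 427 and 1003 CPM in AAVS IL4, lower with IL4 in 4 of 4 lines, with a log2 fold change of -0.50 (SE 0.24, adjusted p = 0.366). In CREBBP baseline it had 1050.2, 1079, 782 and 731 CPM and in CREBBP IL4 946, 438, 846 and 759.6 CPM, and the low value of 438 CPM came from the library with the 18.1% share of small RNAs. CD72, a receptor of the lectin type, was at 64.6, 34.8, 75.1 and 77.8 CPM in AAVS baseline, 59.1, 21.5, 60.1 and 66.9 CPM in AAVS IL4, 52.8, 35.6, 40.8 and 36.8 CPM in CREBBP baseline and 52.7, 23.9, 37.8 and 33.4 CPM in CREBBP IL4. It was lower with IL4 in 4 of 4 lines of the AAVS pools (log2 fold change -0.40, SE 0.17, adjusted p = 0.310), and the CREBBP pools of lines 3 and 4 were lower than the AAVS pools by 0.87 and 1.07 at baseline and by 0.66 and 0.99 with IL4. Over both lines the differences of CD37 at baseline were alike in direction, at -0.97 and -0.84.

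**Figure D3:**
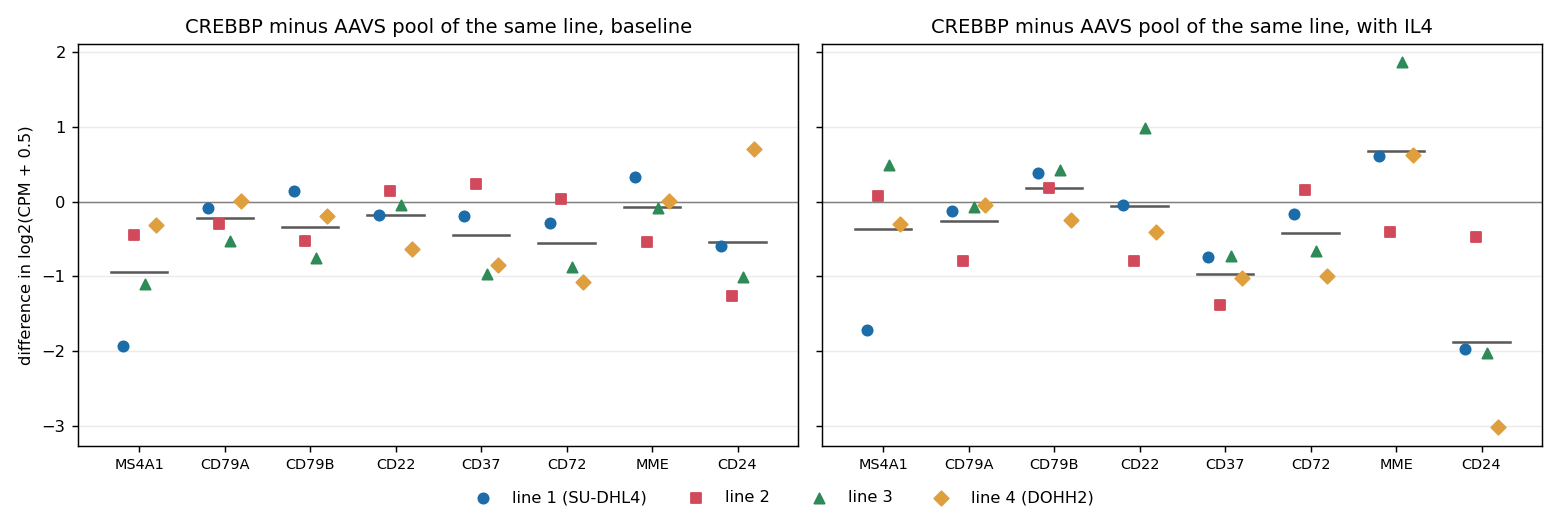
Difference in log2(CPM + 0.5) between the CREBBP and the AAVS pool of the same line at baseline (left) and with IL4 (right) for 8 members, with 1 point per line and a bar at the mean of the 4 lines. MS4A1 is below 0 in all lines at baseline, CD79A, CD37 and CD24 in all lines with IL4, and MME with IL4 lies above 0 in lines 1, 3 and 4.

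CR2 had by far the largest difference among the 9 antigens. It was at 0.481, 0.0245, 0.0205 and 0.229 CPM in AAVS baseline and at 27.0, 15.0, 42.2 and 7.90 CPM in AAVS IL4, for lines 1 to 4. In the CREBBP pools it was at 0.252, 0, 0.799 and 0.0727 CPM at baseline and at 0.464, 0.0248, 0.139 and 0.145 CPM with IL4. The AAVS IL4 libraries held 377 to 829 CR2 counts each and the other 12 libraries 0 to 37, so that the groups did not overlap and the values outside AAVS IL4 rest on few counts. In the AAVS pools and in the pools with IL4, CR2 passed the filter on low counts through AAVS IL4, the group where it is high. It did not pass this filter in the CREBBP pools, and it passed it at baseline, which leaves that group out. The log2 fold change was 6.92 (SE 0.95, adjusted p = 0.0225) for IL4 in the AAVS pools, -6.68 (SE 0.62, adjusted p = 0.00584) for CREBBP against AAVS pools with IL4, and -7.06 (SE 1.36, adjusted p = 0.0459) for the difference in IL4 response, each with the same direction in 4 of 4 lines. The first of these did not pass without line 1 (adjusted p = 0.0811). The difference in response did not pass without line 1 (0.249), line 2 (0.0529), line 3 (0.185) or line 4 (0.0710), nor with DESeq2's size factors in edgeR (0.0502). The difference between the pools with IL4 passed without each line, with adjusted p between 0.00131 and 0.0453. At baseline the pools did not separate (log2 fold change 0.16, SE 1.36, adjusted p = 0.9725).

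Transcripts of most genes on the naive and memory B cell list and on the T and NK cell list were high in the same libraries as CR2. IGHM stood at 951, 711, 1711 and 138 CPM in the AAVS IL4 libraries of lines 1 to 4, CD44 at 455, 67.5, 941 and 158 CPM, with at most 0.472 CPM of CD44 in the other 12. FCER2, the low affinity IgE receptor that IL4 is known to induce, was at 105, 17.5, 212 and 40.1 CPM, against 6.79 to 12.6 CPM in AAVS baseline, 2.76 to 7.26 CPM in CREBBP baseline and 1.76 to 21.3 CPM in CREBBP IL4. Its level in line 2 was higher in CREBBP IL4, at 21.3 CPM, than in AAVS IL4, so FCER2 did not separate the AAVS IL4 libraries from the others as IGHM and CD44 did. The naive and memory B cell list summed to 2274, 918, 4017 and 662 CPM in these libraries and to 47.8 to 328 CPM in the other 12. The T and NK cell list summed to 96.8, 68.3, 189 and 38.0 CPM, and to 2.44 to 38.8 CPM elsewhere. CR2, IGHM and both sums had the same order of lines, 3, 1, 2 and 4. IGHM is itself a gene of the naive and memory B cell list, so it and that sum are not separate. CD44 and FCER2 had the order 3, 1, 4 and 2. The part of these transcripts in the CR2 result was not tested. The AAVS IL4 group is the same 4 libraries for the treatment and for these markers, so an IL4 response of the lines and RNA from other cells in these libraries cannot be told apart, and neither can, in bulk RNA, fewer cells of a type and less RNA per cell. CD81, which associates with CR2, was not called, at 191 to 248 CPM in AAVS baseline and 121 to 216 CPM in AAVS IL4 (log2 fold change -0.39, SE 0.26, adjusted p = 0.472).

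**Figure D4:**
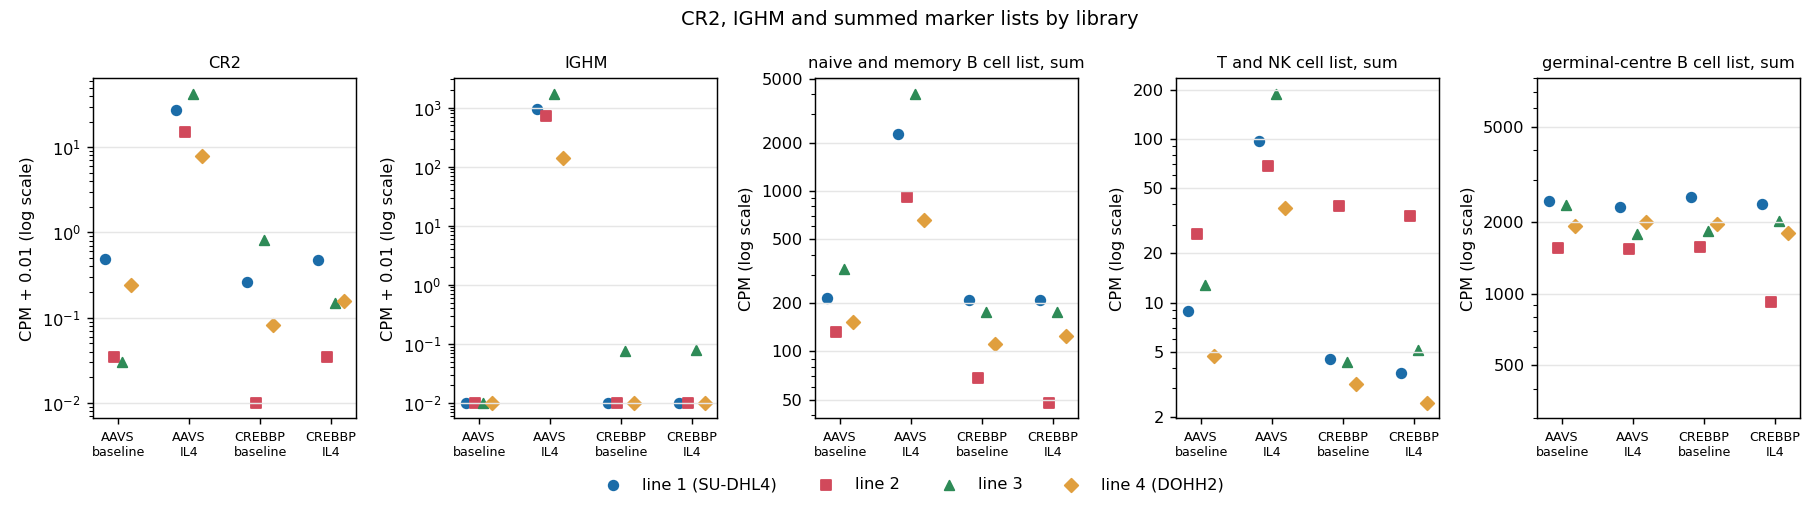
CR2, IGHM (both with 0.01 CPM added) and the summed CPM of the naive and memory B cell, T and NK cell and germinal centre B cell lists in the 16 libraries, on log axes, by group and coloured by line. CR2, IGHM and the first 2 sums are highest in the AAVS IL4 libraries of each line, in the order line 3, 1, 2 and 4, while the germinal centre sum of 1536 to 2315 CPM in that group lies within the range of the others. IGHM is itself part of the naive and memory B cell sum.

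CD24 was far higher in line 2 than in the others. Line 2 held 208 CPM in AAVS baseline and 238 in AAVS IL4, with 86.7 and 171 CPM in the CREBBP pools without and with IL4, and outside AAVS IL4 lines 1, 3 and 4 held 2.89 to 6.89 CPM. In AAVS IL4 these lines had 21.5, 29.4 and 58.2 CPM, above each of their other libraries. The log2 fold change for IL4 in the AAVS pools was 1.93 (SE 0.59, adjusted p = 0.196), higher in 4 of 4 lines, and without line 2 it was 2.50 with an adjusted p of 0.0491. CREBBP against AAVS pools with IL4 gave -1.69 (SE 0.51, adjusted p = 0.0989), lower in 4 of 4 lines, and -2.21 with an adjusted p of 0.00945 without line 2. DESeq2 gave adjusted p of 0.00693 and 0.00563 for these comparisons, where it called 2062 of 20310 and 4154 of 19581 genes. Without the line as a block the values were 0.68 (adjusted p = 0.9202) and -0.24 (adjusted p = 0.936), and without line 4 the first was 1.29 (adjusted p = 0.245). As with CR2, the libraries in which CD24 was highest in each line are those with IGHM and T-cell transcripts, and their part in it was not tested. Among lines 1, 3 and 4 of AAVS IL4, CD24 was highest in line 4 and IGHM in line 3, and this difference in order was not tested. In the CREBBP pools the differences with IL4 were 0.27, 0.97, 1.12 and 0.14 in lines 1 to 4, with a log2 fold change of 0.73 (SE 0.23, unadjusted p = 0.0121, adjusted p = 0.924). The second of these differences involves the CREBBP IL4 library of line 2, with its 18.1% share of small RNAs. The third involves the CREBBP baseline library of line 3, at 13.3%, and the part of these shares was not tested. Near copies of CD24 could take part of its reads, but CD24P4 had at most 5 counts in a library and CD24P1 and CD24P2 had 0.

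MME was at 129, 160.1, 146 and 279 CPM in AAVS baseline and at 95.2, 109.5, 61.5 and 205 CPM in AAVS IL4, lower with IL4 in 4 of 4 lines, with a log2 fold change of -0.73 (SE 0.23, adjusted p = 0.214). In the CREBBP pools it was at 162, 109.9, 138 and 279.8 CPM at baseline and at 146, 82.3, 224 and 316 CPM with IL4 (0.13, SE 0.16, adjusted p = 0.933). With IL4 the CREBBP pools were above the AAVS pools in lines 1, 3 and 4 by 0.61, 1.86 and 0.63 and below in line 2 by 0.41, for a log2 fold change of 0.94 (SE 0.33, adjusted p = 0.135), which was 0.58 without line 3. The difference in IL4 response was 0.96 (SE 0.30, adjusted p = 0.215), positive in 4 of 4 lines. DESeq2 called each of these. Its adjusted p were 0.0436 for IL4 in the AAVS pools, 0.0390 for the pools with IL4 and 0.0373 for the difference in response. Over all genes it called 2062 of 20310, 4154 of 19581 and 1099 of 19380 in these comparisons. The edgeR test called 488, 859 and 140 genes there. Of the 7 members other than CD24 and CR2, 6 had their lowest difference between AAVS IL4 and AAVS baseline in line 3, with -1.24 for MME, -1.22 for CD79B and -0.91 for CD22, and CD72 had it in line 2. The share of all genes with their lowest difference in line 3 was not computed, so this count has no background beside it. The AAVS IL4 library of line 3 also had the highest IGHM level and the highest naive and memory B cell and T and NK cell sums. It had the lowest total of the 16 libraries, 19649735, and a small RNA share of 10.7% against 6.31% in AAVS baseline of the same line. The part of these in the lower values was not tested.

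Levels of most members differed between the lines. A test over the 16 libraries with the group as a term called 6 of 9 members as different between the 4 lines, CD79A, CD79B, CD37, CD72, MME and CD24, where 40.0% of the 21932 genes tested were called. CD79A averaged 649.9 ± 28.8, 364 ± 111, 529.5 ± 108 and 325 ± 8.53 CPM in lines 1 to 4 (SD, n = 4 libraries per line; adjusted p = 0.000672), and CD79B 448 ± 56.8, 182 ± 28.6, 402 ± 151 and 232 ± 22.9 CPM (adjusted p = 0.00197). CD37 averaged 328 ± 69.6, 154 ± 54.7, 279 ± 96.0 and 294 ± 106 CPM (adjusted p = 0.00327), lowest in line 2, as was CD72 at 57.3 ± 5.71, 29.0 ± 7.32, 53.4 ± 17.5 and 53.7 ± 22.0 CPM (adjusted p = 0.0186). MME was highest in line 4, with 133 ± 28.4, 115 ± 32.5, 142 ± 66.6 and 269.8 ± 46.8 CPM (adjusted p = 0.0167). CD24 had 9.31 ± 8.15, 176 ± 65.4, 11.4 ± 12.2 and 18.7 ± 26.4 CPM (adjusted p = 5.48e-06). MS4A1, CD22 and CR2 did not pass (adjusted p = 0.541, 0.325 and 0.0708). Among lines 1, 3 and 4, CD79A, CD79B and MME passed (adjusted p = 0.00480, 0.0162 and 0.0234), 3 of 9 members against 20.3% of genes, and CD24 did not (0.847). The 4 libraries of a line come from 2 pools of that line, so these p-values compare these lines and not kinds of lymphoma.

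Of 35 further surface antigens, 7 rose with IL4 in the AAVS pools and 0 fell, where 2.39% of all genes tested were called and higher, with a median log2 fold change of 0.57 over the 35 tested beside 0.01 over all genes tested. The 5 with the largest fitted change were CD200, TNFRSF13B, CD9, CCR7 and CD80. CD200, TNFRSF13B and CD9 were at most at 0.164 CPM outside AAVS IL4 and passed the filter on low counts through that group. Only 29 of the 35 passed it in each comparison without AAVS IL4. The counts and medians in comparisons with that group thus partly follow from the filter. CCR7, the chemokine receptor that guides lymphocytes to T-cell zones, was at 0.267 to 6.999 CPM in AAVS baseline and at 23.1 to 300.5 CPM in AAVS IL4 (log2 fold change 6.23, SE 0.56, adjusted p = 0.00661), and CD80, a costimulatory ligand, at 0.205 to 1.83 and 20.9 to 48.1 CPM (5.26, SE 0.74, adjusted p = 0.0232). CR2 and these genes were high in the same 4 libraries, and CCR7 and TNFRSF13B also belong to the naive and memory B cell list. In the CREBBP pools 0 of 29 tested were called with IL4, and 0 of 29 between the pools at baseline, where the median was -0.47, and over all genes 0% were called in both. With IL4, 9 of 34 were lower in the CREBBP pools and 0 higher (median -1.24), against 3.42% of all genes called and lower, and CD200, CD9, TNFRSF13B, CCR7 and CD80 again had the largest fitted changes. Of the 35, CCR7 alone passed for the difference in IL4 response (-6.35, SE 0.64, adjusted p = 0.00134), where 0.620% of all genes were called and lower.

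The 24 signalling partners of the B-cell receptor, such as LYN, SYK, BTK and BLNK, gave 0 calls for IL4 in either kind of pool, at baseline between the pools and for the difference in response, with medians of -0.26, -0.09, -0.25 and 0.11 in that order, where 2.40%, 0%, 0% and 0.638% of all genes were called. With IL4, 1 of 24 was lower in the CREBBP pools, PRKCB, the protein kinase C isoform that links the receptor to NF-kappaB (-1.35, SE 0.27, adjusted p = 0.0398), where 4.39% of all genes were called. These counts of 0 or 1 of 24 are near the background. Of 21 B-cell transcription factors, 2 rose with IL4 in the AAVS pools, PRDM1 and IRF4, where 2.39% of all genes were called and higher. With IL4, 3 of the 21 were lower in the CREBBP pools, against 3.42% of all genes called and lower. These were PRDM1, IRF4 and XBP1, which act in plasma cell differentiation (XBP1 by a log2 fold change of -2.29, SE 0.48, adjusted p = 0.0451). PRDM1 was at most at 0.172 CPM outside AAVS IL4 and passed the filter on low counts through that group. IRF4 was at most at 1.25 CPM outside AAVS IL4. For IL4 in the AAVS pools and between the pools with IL4, it too passed the filter through that group. In the CREBBP pools 19 of the 21 factors passed the filter. IRF4 went from 0.147 to 1.25 CPM in AAVS baseline to 49.3 to 362 CPM in AAVS IL4 (log2 fold change 7.77, SE 0.34, adjusted p = 0.000594). Its response differed between the pools (-6.63, SE 0.45, adjusted p = 0.000115), the 1 call among the 21, against 0.620% of all genes called and lower. PRDM1 and XBP1 are also among the plasma cell genes that were higher in the 4 AAVS IL4 libraries than in any of the other 12, the libraries that hold IGHM, CD44 and T-cell transcripts, and the part of those transcripts in these changes was not tested. PAX5, EBF1, SPIB and POU2AF1, known to drive antigens of the B-cell lineage, were not among the genes called in these 5 comparisons.

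The members did not vary as a single block. Over the 16 libraries, which share lines and pools, Pearson's r of log2 CPM was 0.86 between CD37 and CD72 and 0.79 between CD79A and CD79B, and 0.95 and 0.81 over the 12 libraries without AAVS IL4. CD37 lies on chromosome 19 and CD72 on chromosome 9. MS4A1 had r between -0.37 and 0.34 with the other 8 members. Among genes with a symbol and a mean of at least 1 CPM, those closest to CD37 were GSN (0.97), TNFRSF13C (0.96) and CLCN6 (0.96), and TNFRSF13C encodes the receptor of the survival factor BAFF. CD24 was closest to SCCPDH (0.97), ARL6 (0.97) and NLRP2 (0.97), and MME to KIF11 (0.96), STRBP (0.96) and ITSN1 (0.95). CR2 was closest to GBP4 (0.99), NRIP1 (0.98) and TNFRSF9 (0.98), but over the 12 libraries without AAVS IL4 these values were 0.36, -0.29 and -0.42, so that this likeness rests on the AAVS IL4 libraries. The closest gene of the remaining members was ZNF721 for MS4A1 (0.89), CCDC102A for CD79A (0.95), BRF2 for CD79B (0.95), CTBP1 for CD22 (0.91) and FCGBP for CD72 (0.93). These correlations are descriptions over 16 libraries that share lines and groups.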

How the data were processed

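The 16 libraries were made from 50 ng of RNA each, per the labels. Per the study's methods and the submitters' processing notes, reads were trimmed with Cutadapt 2.3, checked with FastQC 0.11.8 and MultiQC 1.7, mapped to GRCh38 with STAR 2.7.8a and assigned to genes with RSEM 1.3.3. What the authors deposited are RSEM's estimated counts for each gene, rounded to whole numbers and not normalized. Because reads shared by near copies are split by estimation, values of such genes are less certain. The methods name DESeq2 without a design for the lines. The study's methods name a stranded library kit, and the strand setting used for counting is not given in the sources used here.

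CPM was computed from library totals, and length-scaled levels from GENCODE 44 exon lengths. Genes kept by filterByExpr were scaled by TMM and tested with edgeR 4.0.16 (R 4.3.3), blocking on the line, with Benjamini-Hochberg adjustment over all genes tested, and adjusted p under 0.05 was called. The difference in IL4 response was fitted over 16 libraries with a term per pool. Alternatives used DESeq2 1.42.0, limma 3.58.1, other scalings and filters, no block, and each line left out. Tables were made with Python 3.11.15, numpy 2.4.6 and pandas 2.3.3. The fits were tested on simulated data with 200 changed genes.

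Libraries of the same number come from the same line, which pairs them. Their deviations from group means correlated with medians of 0.54, 0.70, 0.28 and 0.65 for lines 1 to 4, and the lowest value, -0.13, was in line 3. Replicates differed from each other beyond sampling noise (chi-square per degree of freedom of 72.0 or more). The n of 4 are cell lines, and with the line as a block p-values measure how a difference between groups varies among these lines. In the test between lines they measure the spread of libraries left after the line and group terms. Total counts of 19649735 to 61981976 set the precision. The members and lists were chosen with earlier results of these data known. All members were named, and from each other list up to 5 called genes with the largest change per comparison. Some items are not reported here.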

Additional observations from a re-analysis of the deposited data

Results flagged for a closer look

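CD24 of line 2 lay far from the other 3 lines in each of the 4 groups, at 208 CPM in AAVS baseline, 238 CPM in AAVS IL4, 86.7 CPM in CREBBP baseline and 171 CPM in CREBBP IL4. CD37 of line 2 lay far below the other lines in AAVS baseline, at 151 CPM. In total 36 groups of 4 libraries were tested by Dixon's criterion, and chance flags about 1 in 20 groups. The IL4 response of CR2 differed between CREBBP and AAVS pools by a log2 fold change of -7.06 (adjusted p = 0.0459, edgeR's quasi-likelihood test of the interaction), lower in 4 of 4 lines. It rests on the AAVS IL4 libraries, which also hold IGHM at 138 to 1711 CPM, and the part of those transcripts in it was not tested.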

How the results depend on the processing

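CR2 kept its direction in every alternative tried for IL4 in the AAVS pools, for the pools with IL4 and for the difference in response, except that 10 counts in every library removed it from the test. Counts of members called for IL4 in the AAVS pools (1) were 2 without a filter, 0 with 10 counts in every library, 3 with DESeq2 and 0 to 2 without a line. At baseline (0) the count was 1 without a filter. With IL4 (1) it was 2 with library totals only, 3 without a filter, 0 with 10 counts in every library, 4 with DESeq2 and 1 to 2 without a line. For the difference in response (1) it was 0 with DESeq2's size factors in edgeR, 0 with 10 counts in every library, 2 with DESeq2 and 0 to 0 without a line. Between lines (6) it was 3 without line 2, where 4186 of 20670 genes were called. Over all genes, the 488 called of 20310 tested for IL4 in the AAVS pools became 1851 of 38148 without a filter. They became 25 of 14373 with 10 counts in every library, 2062 of 20310 with DESeq2 and 860 of 20310 with limma-voom. Without a line they ran from 64 of 20640 to 1035 of 20992. The 859 called of 19581 with IL4 became 1331 of 19581 with library totals only and 682 of 13591 with 10 counts in every library. They became 3466 of 37104 without a filter, 4154 of 19581 with DESeq2 and 2032 of 19581 with limma-voom. They were 540 of 19581 without the block and 25 of 20088 to 2547 of 20535 without a line. The 140 of 21932 for the difference in response became 1191 of 39680 without a filter, 1099 of 19380 with DESeq2 and 587 of 21932 with limma-voom. They were 141 of 21932 with DESeq2's size factors in edgeR and 69 of 13073 with 10 counts in every library. They were 2 of 21932 without the block and 16 of 22085 to 264 of 22162 without a line. The 0 at baseline became 586 of 35938 without a filter, 511 of 15999 with DESeq2, 39 of 18936 with limma-voom and 515 of 19206 without line 2. The 0 for IL4 in the CREBBP pools became 40 of 34259 without a filter. Scaling by library totals moved the median of all genes with IL4 to -0.33 and that of the members from -0.07 to -0.35, and without a line the latter ran from -0.30 to 0.022. The members' median difference in response (0.33) ran from 0.074 to 0.32 without a line.

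Without the replicate block, 0 members were called for the difference in response, where CR2 had -7.41 (adjusted p = 0.155), and the counts of members called in the other 4 comparisons between conditions stayed the same. The CD24 difference in response turned from -1.09 to 0.78 without the block. The other values that changed sign were smaller in the fit as reported. Without the block these were CD37 for IL4 in the AAVS pools (-0.014) and MS4A1 with IL4 (0.040). With library totals only they were MME at baseline (-0.073), CD79A with IL4 (-0.26), CD22 with IL4 (-0.074) and the CD79A difference in response (-0.032). Without a filter they were CD37 for IL4 in the AAVS pools (-0.067) and MME at baseline (-0.017). CD79A with IL4 was -0.0014 with DESeq2's factors, -0.076 with 10 counts in every library and -0.0013 with DESeq2, which gave CR2 -0.15 at baseline. Without a line, CD37 for IL4 in the AAVS pools ran from -0.11 to 0.17, CD79B for IL4 in the CREBBP pools from -0.012 to 0.39, and at baseline CD22 from -0.17 to 0.089, MME from -0.079 to 0.21 and CR2 from -1.31 to 1.11. With IL4, MS4A1 ran from -0.34 to 0.41, CD79A from -0.051 to 0.13, CD22 from -0.12 to 0.38 and CD72 from -0.40 to 0.051. The cause was not tested. CR2 rests on 0 to 37 counts outside AAVS IL4, which limits its values there.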
